A study of Mus musculus with 6 samples.

Results

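Collagens are secreted or membrane-bound proteins built from alpha chains that wind around each other in threes along glycine-rich repeats, and each chain has a gene of its own. The genes were taken by symbol: Col, a type number, the letter a and a chain number. This gave 40 chains among the 17006 genes of the deposited tables. They were sorted into fibrillar chains (10), chains of the basement membrane network (6), fibril-associated collagens with interrupted helices, called FACIT (8), transmembrane chains (3) and other chains (13). The 6 libraries come from bulk RNA sequencing of neural stem cells cultured from the subventricular zone, the germinal layer beside the lateral ventricles of the mouse brain. The mice were C57BL/6 of 2 months (young, 3 libraries) or of 15 to 18 months (aged, 3 libraries), with no allele or treatment named for either group. Tissue from 5 mice was pooled before dissociation and the cells were grown in proliferation medium, so the values describe cultures. The labels do not say that each library had its own pool, so p-values measure the spread between these libraries, which may be technical.

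Fibrillar collagens such as types I, III and V form the cross-striated fibres of connective tissue and are made above all by fibroblast-like cells. Type IV collagen forms the sheet-like network of basement membranes, which in the subventricular zone surround blood vessels and reach stem cells as branched extensions. FACIT chains sit on the surface of fibrils, and type XVIII belongs to vascular and epithelial basement membranes and releases the fragment endostatin. Chains are hydroxylated and folded in the endoplasmic reticulum, exported, trimmed at their ends and crosslinked outside the cell.

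Levels are FPKM, which divide the fragments of a gene by its transcript length and by library size, so levels of different genes can be compared per length. Changes are log2 differences of FPKM + 1 between aged and young libraries, tested with limma over the 11912 genes that averaged 1 FPKM or more and called at a Benjamini-Hochberg adjusted p under 0.05. Steps in the low values put each library at about 5165000 to 5480000 counted reads, which gives the estimated reads quoted here. All 10 markers of neural stem cells checked, among them Sox2, Nes and Fabp7, had a mean of at least 1 FPKM, and their summed level ran from 5553 to 5783 FPKM per library.

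Of the 40 chains, 15 had a mean of at least 1 FPKM and were tested, and 25 lay below. The tested chains spanned means from 1.035 FPKM for Col27a1 to 19.7 FPKM for Col16a1, with a median of 4.43 FPKM against 12.5 FPKM for all tested genes. Over the 6 libraries the 5 highest chains, Col16a1, Col9a3, Col4a5, Col5a2 and Col18a1, held 58.9% of the summed collagen FPKM. One chain, the fibrillar Col1a1, passed the test and was higher in aged libraries, and 0 were lower. Its young values were under 1 FPKM, and it passed the filter through its aged ones. Without a filter it also passed (limma adjusted p = 0.0207). Across all tested genes, 0.327% were called higher, 0.395% lower and 0.722% either way. At an unadjusted p under 0.05, 3 chains were higher and 2 lower by limma, where 11.9% of all tested genes reached that p, 6.3% higher and 5.55% lower. The ages did not overlap for 5 of the 15 tested chains, 3 higher and 2 lower in aged libraries. Of all tested genes, 17.6% did not overlap, 8.98% higher and 8.58% lower. Since Col1a1 entered the test only through its aged libraries, these counts are not support for a change of collagens as a group. The median log2 change of the tested chains was -0.040, against 0.003 for all tested genes.

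**Figure D1:**
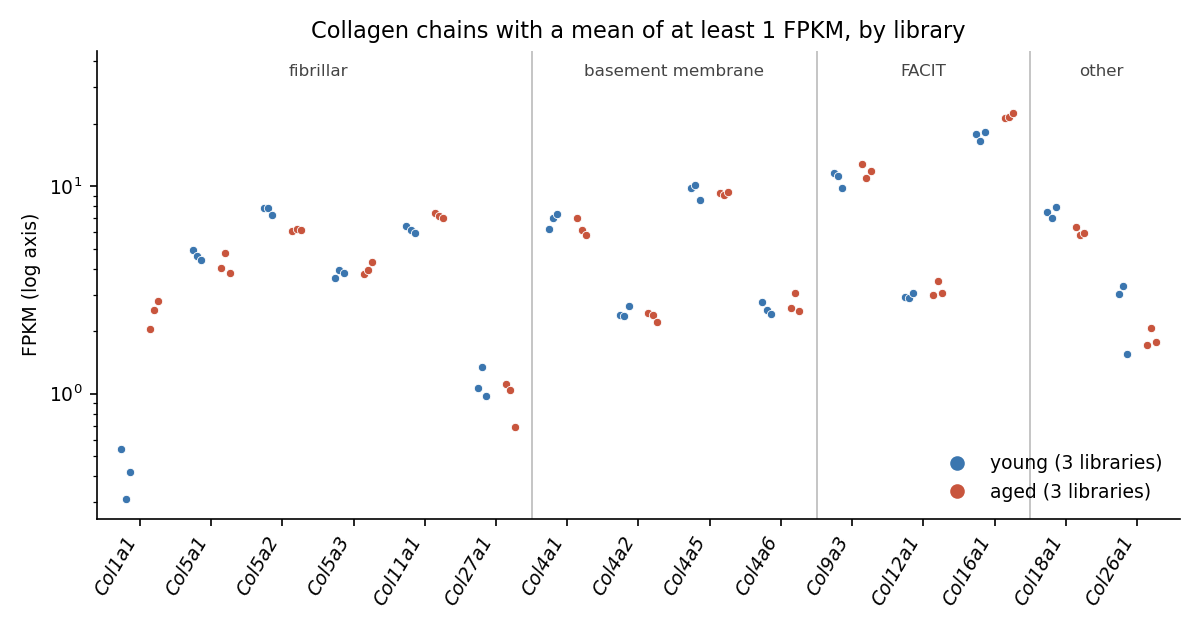
FPKM on a log axis for the 15 collagen chains with a mean of at least 1 FPKM, one point per library, grouped by class (young blue, aged red). Col1a1 spans 0.31 to 0.54 FPKM in the young group and 2.04 to 2.81 FPKM in the aged group, while most other chains lie at like levels in both.

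Type I collagen, the main fibre of bone, skin and scar, is a trimer of chains from Col1a1 and Col1a2. Col1a1 (gene 12842, mm10 chromosome 11, 94936224 to 94953042) was at 0.54, 0.31 and 0.42 FPKM in the young libraries and at 2.04, 2.53 and 2.81 FPKM in the aged ones. All aged libraries lay above all young ones. The means of 0.423 ± 0.115 and 2.46 ± 0.390 FPKM (SD, n = 3 each) stand for about 13.6 and 76.4 estimated reads, a ratio of the FPKM means of 5.81. Its log2 change, 1.28 ± 0.15 (SE), had a limma adjusted p of 0.0107. In the fit without a filter, which did not need its aged values to admit it, the log2 change was the same and the limma adjusted p was 0.0207. With any 1 library left out of the filtered fit, which Col1a1 enters through its aged values, the limma adjusted p stayed at 0.0433 or less. The fit without a filter was not run with a library left out. The size depends on the constant added before the log, with a log2 change of 2.30 for FPKM + 0.1 and 0.46 for FPKM + 5.

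Col1a2 (gene 12843, chromosome 6, starting at 4505618) was listed at 0, 0.04 and 0 FPKM in young libraries and at 0.54, 0.61 and 0.75 FPKM in aged ones. It again did not overlap between the ages. The aged values are about 15.3, 16.8 and 21.02 estimated reads and the only young value above 0 is about 1.17, so no fold is given. Its mean was under the filter. In the fit without a filter, which called 0.347% of 17006 genes, its log2 change was 0.69 with a limma adjusted p of 0.0238. With no filter and FPKM + 0.1, which called 0.435% of genes, that adjusted p was 0.0205. Per length, Col1a1 stood 3.75 to 4.15 times above Col1a2 in the aged libraries. Col3a1, which encodes the only chain of type III collagen and is often deposited with type I, was at 0, 0 and 0.06 FPKM in young and 0.10, 0.13 and 0.16 FPKM in aged libraries. These are at most about 4.66 estimated reads, and the limma adjusted p without a filter was 0.454.

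In bulk RNA, fewer cells of a type and less RNA per cell cannot be told apart. Of the 18 markers of fibroblasts and pericytes listed, the tables held 12. Their summed level ran from 25.6 to 29.1 FPKM over young libraries and from 24.4 to 25.2 FPKM over aged ones, lower and not overlapping with age. Most of it came from Thy1, a surface protein also made by neurons, at 18.59, 16.68 and 20.28 FPKM in young and 16.11, 15.47 and 16.23 FPKM in aged libraries (limma adjusted p = 0.322), lower without overlap. The pericyte receptor Pdgfrb was at 0 FPKM in 5 libraries and at 0.03 FPKM in aged 2. The fibroblast proteoglycan Dcn was at 0 FPKM in 5 libraries and at 0.1 FPKM in young 3. The fibroblast protease Fap was listed at 0 FPKM in all young libraries and at 0.07, 0.07 and 0 FPKM in aged ones. Pdgfra, a receptor of fibroblasts and also of oligodendrocyte progenitors, was at 1.59, 1.48 and 1.51 FPKM in young and at 1.96, 2.17 and 2.62 FPKM in aged libraries (limma adjusted p = 0.309), higher without overlap. The other 10 markers overlapped between the ages. Among them were the contractile genes Tagln at means of 2.47 and 1.58 FPKM, Myl9 at 3.03 and 2.56 FPKM and Acta2 at 0.48 and 0.313 FPKM. Foxc1 went the other way, at means of 1.61 and 1.98 FPKM (limma adjusted p = 0.679). Endothelial markers, of which the tables held 8 of 10, summed to between 3.01 and 4.65 FPKM per young library and between 3.63 and 3.83 FPKM per aged one. Of these, Egfl7 was higher without overlap at 1.72, 1.25 and 1.57 against 2.56, 2.42 and 2.71 FPKM (limma adjusted p = 0.147), and the receptor Flt1, under the filter, was lower without overlap at 1.21, 0.72 and 0.86 against 0.26, 0.59 and 0.55 FPKM. The part of other cell types in the rise of Col1a1 was not tested.

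The start region of Col1a2 is shown because this chain and Col1a1 were both higher in aged libraries. RefSeq promoter windows, 250 bases before to 50 after the start site on GRCm38.p6 (mm10), were at hand for 32 of the 40 chains, in 35 windows. They were searched on both strands for the letters CCAAT, for the GC box, which reads GGGCGG, and for the TATA box, which reads TATAAA. Capitals mark any match, also where it reads on the other strand. The windows of Col1a2 (chr6:4505368-4505667, plus strand) and of the most abundant chain, Col16a1 (chr4:130047590-130047889, plus strand), read:
Col1a2: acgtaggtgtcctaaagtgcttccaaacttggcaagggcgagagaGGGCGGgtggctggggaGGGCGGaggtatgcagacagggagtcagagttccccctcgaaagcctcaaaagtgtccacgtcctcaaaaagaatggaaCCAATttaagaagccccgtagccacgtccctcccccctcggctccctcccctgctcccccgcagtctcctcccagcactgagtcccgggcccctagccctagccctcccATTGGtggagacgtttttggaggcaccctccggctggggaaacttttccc
Col16a1: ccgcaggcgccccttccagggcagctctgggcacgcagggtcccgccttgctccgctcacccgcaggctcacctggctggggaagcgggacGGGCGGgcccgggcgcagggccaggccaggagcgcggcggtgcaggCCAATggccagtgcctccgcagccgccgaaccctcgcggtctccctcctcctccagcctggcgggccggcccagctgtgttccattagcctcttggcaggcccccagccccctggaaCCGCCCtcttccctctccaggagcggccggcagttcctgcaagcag
In Col1a2 the first CCAAT begins at base 142 of the window and the GC boxes at bases 46 and 63. In Col16a1, CCAAT begins at base 138. The GC box was in 62.9% of the collagen windows and in 35.7% of all 32851 windows, CCAAT in 34.3% and 37.4%, and the TATA box in 11.4% and 13.6%. These are matches of letters in a window and were not tested.

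The remaining fibrillar chains belong to types V and XI, which nucleate fibrils and set their width, and to type XXVII. Col5a2 (gene 12832, chromosome 1, 45374331 to 45503282) was at 7.88, 7.84 and 7.26 FPKM in young and at 6.10, 6.25 and 6.17 FPKM in aged libraries. Every aged value lay below every young one. Its log2 change, -0.27 ± 0.07 (SE), had a limma adjusted p of 0.180, which does not pass. Its partner Col5a1 was at 4.92, 4.63 and 4.43 FPKM in young and 4.02, 4.78 and 3.82 FPKM in aged libraries, with overlap. Exons of Col5a1 share 113 and 99 bases with Gm13372 and 2810430I11Rik on the other strand, and the strand setting of the counting is not given in the sources used here. Col5a3, a chain of type V in a smaller set of tissues, was at 3.62, 3.96 and 3.83 FPKM in young and 3.78, 3.96 and 4.33 FPKM in aged libraries. It overlapped too. Col5a1 stood at 0.591 to 0.624 times Col5a2 in young and 0.619 to 0.765 times in aged libraries.

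Col11a1 (gene 12814, chromosome 3, starting at 114030479) was at 6.44, 6.18 and 5.98 FPKM in young and at 7.39, 7.21 and 7.04 FPKM in aged libraries. The groups did not overlap, and the log2 change of 0.19 ± 0.07 (SE) had a limma adjusted p of 0.344. The other type XI chain, Col11a2, was at 0.39, 0.26 and 0.39 FPKM in young and at 0.20, 0.23 and 0.23 FPKM in aged libraries, lower and without overlap but on only about 11.3 and 6.97 estimated reads. Per length, Col11a1 stood 15.3 to 23.8 times above Col11a2 in young and 30.6 to 36.95 times in aged libraries. Col2a1, the cartilage chain that also supplies type XI in cartilage, reached 0.07 FPKM at most. Col27a1 was at 1.06, 1.34 and 0.97 FPKM in young and 1.11, 1.04 and 0.69 FPKM in aged libraries, with overlap. As a class, the fibrillar chains summed to 24.9, 24.6 and 23.4 FPKM in young and 25.3, 26.7 and 26.04 FPKM in aged libraries, where the aged mean was 1.07 times the young one. The mean sums were 24.3 and 26.02 FPKM and the means of Col1a1 0.423 and 2.46 FPKM, so Col1a1 alone rose by more than the sum. Class sums are given as descriptions and were not tested. The class held chains of opposite direction: 4 of the 10 were higher without overlap (Col1a1, Col1a2, Col3a1, Col11a1) and 2 lower (Col5a2, Col11a2). Col1a1, Col11a1 and Col5a2 were tested, where 17.6% of all tested genes did not overlap, and only Col1a1 passed. Col1a2, Col3a1 and Col11a2 were under the filter, where 6.71% of genes did not overlap.

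**Figure D2:**
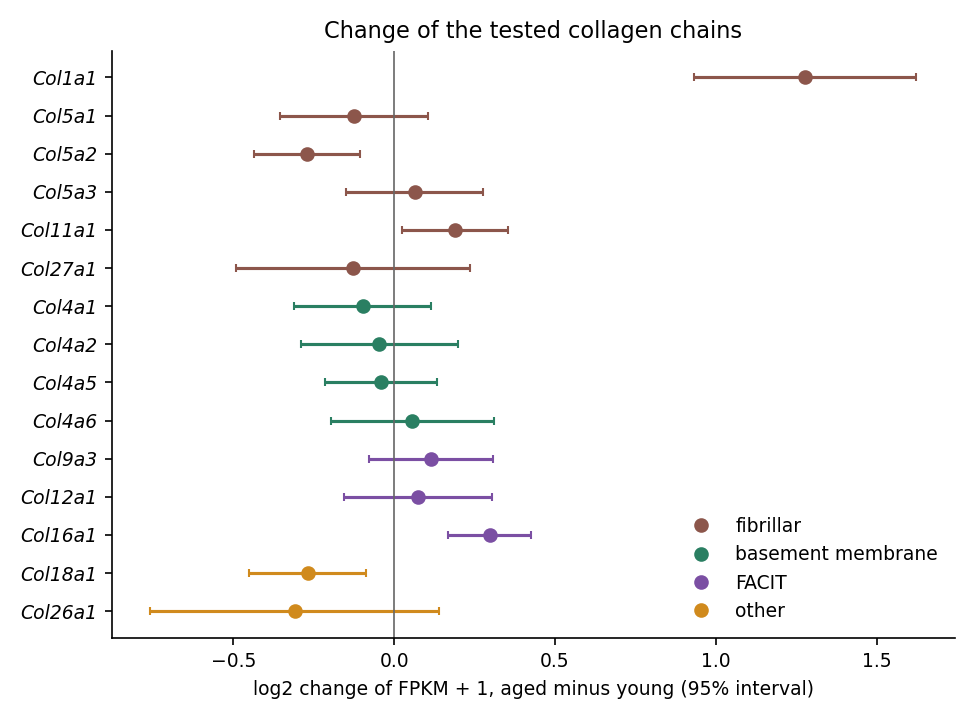
Log2 change of FPKM + 1, aged minus young, of the 15 tested chains with limma's 95% interval for each chain alone, coloured by class. The interval of Col1a1 runs from 0.93 to 1.62, and those of Col5a2 and Col18a1 lie below 0 and those of Col11a1 and Col16a1 above 0 although none of these 4 passed the adjusted test.

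No chain of the basement membrane network, here the type IV chains alone, passed the test or separated the ages. Col18a1, also a basement membrane chain, was sorted with the other chains and was lower without overlap, so this statement depends on the sorting. Type IV trimers combine Col4a1 with Col4a2, Col4a3 and Col4a4 with Col4a5, or Col4a5 with Col4a6. Col4a5 was the highest of them at 9.86, 10.15 and 8.61 FPKM in young and 9.28, 9.04 and 9.37 FPKM in aged libraries. Col4a1 was at 6.22, 7.00 and 7.34 FPKM in young and 7.02, 6.15 and 5.85 FPKM in aged libraries. The aged and young values of both chains overlapped. Col4a2 was at 2.39, 2.38 and 2.64 FPKM in young and 2.46, 2.40 and 2.22 FPKM in aged libraries. Col4a6 was at 2.77, 2.52 and 2.42 FPKM in young and 2.60, 3.04 and 2.51 FPKM in aged libraries. The ranges of all 4 overlapped between the ages, and the limma adjusted p ran from 0.762 to 0.917. Their 95% intervals for the log2 change lie between -0.31 and 0.31. The kidney and lung chains Col4a3 and Col4a4 stayed at 0.06 FPKM or less in all libraries. Per length, Col4a1 stood 2.60 to 2.94 times above Col4a2 in young and 2.56 to 2.85 times in aged libraries, and Col4a5 3.56 to 4.03 and 2.97 to 3.73 times above Col4a6. The class summed to 21.3, 22.1 and 21.01 FPKM in young and 21.5, 20.6 and 19.99 FPKM in aged libraries.

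Col4a1 and Col4a2 lie on opposite strands of chromosome 8 with start sites 21 bases apart, so their windows share 78 bases (11312777 to 11312854). The 2 genes overlap by 85 bases and their exons share 22 bases. Exons of Col4a2 also share 43 bases with Gm15419 on the other strand. With no strand setting given, reads there cannot be told apart. The window of Col4a2 (chr8:11312555-11312854, plus strand), with the same motifs in capitals, shows the stretch from which both genes start:
Col4a2: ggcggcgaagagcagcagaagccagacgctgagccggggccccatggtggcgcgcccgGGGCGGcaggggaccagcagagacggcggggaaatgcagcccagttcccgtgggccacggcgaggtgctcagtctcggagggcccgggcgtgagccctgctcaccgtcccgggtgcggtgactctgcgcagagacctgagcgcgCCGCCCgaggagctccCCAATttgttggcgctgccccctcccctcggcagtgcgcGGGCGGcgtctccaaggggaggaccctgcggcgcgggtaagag
It holds a CCAAT at base 219 and GC boxes at bases 59, 203 and 258.

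FACIT chains were the class with the highest summed level. They summed to 33.96, 31.6 and 31.9 FPKM in young and 38.55, 37.5 and 38.5 FPKM in aged libraries, without overlap, and the aged mean was 1.18 times the young one. Most of the difference lies in Col16a1 (gene 107581, chromosome 4, starting at 130047817), a FACIT chain of broad tissue range and the most abundant collagen here. It was at 17.88, 16.57 and 18.34 FPKM in young and at 21.44, 21.59 and 22.47 FPKM in aged libraries. Every aged value lay above every young one, on about 496.2 and 595.6 estimated reads. Its log2 change of 0.30 ± 0.06 (SE) did not pass, with a limma adjusted p of 0.0631. Over all alternatives of the fit that adjusted p ran from 0.0506 to 0.198.

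Col9a3, a chain of the cartilage FACIT type IX, was at 11.55, 11.21 and 9.77 FPKM in young and 12.77, 10.90 and 11.79 FPKM in aged libraries, with overlap. Its exons share 234 bases with Tcfl5 on the other strand, and with no strand setting given, reads there cannot be told apart. The other chains of the type IX trimer were low. Col9a2 was at 1.06, 0.33 and 0.07 FPKM in young and 0.74, 0.75 and 0.40 FPKM in aged libraries. Col9a1 was listed at 0 FPKM in all young libraries and at 0.05, 0.14 and 0.05 FPKM in aged ones, about 2.77 estimated reads at most. The values of Col9a3 thus stood 10.9 to 139.6 times above those of Col9a2 per length. The ratio of 139.6 is from young 3, where Col9a2 had about 1.11 estimated reads, and the next highest was 33.97 in young 2. Col12a1, which binds fibrils under tension, was at 2.93, 2.90 and 3.07 FPKM in young and 2.98, 3.49 and 3.07 FPKM in aged libraries, with overlap and a limma adjusted p of 0.849. Col22a1, a FACIT chain of tissue junctions such as muscle to tendon, went against its class at 0.35, 0.26 and 0.29 FPKM in young and 0.12, 0.12 and 0.15 FPKM in aged libraries. It did not overlap, on about 14.3 and 6.001 estimated reads, and its limma adjusted p without a filter was 0.322.

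**Figure D3:**
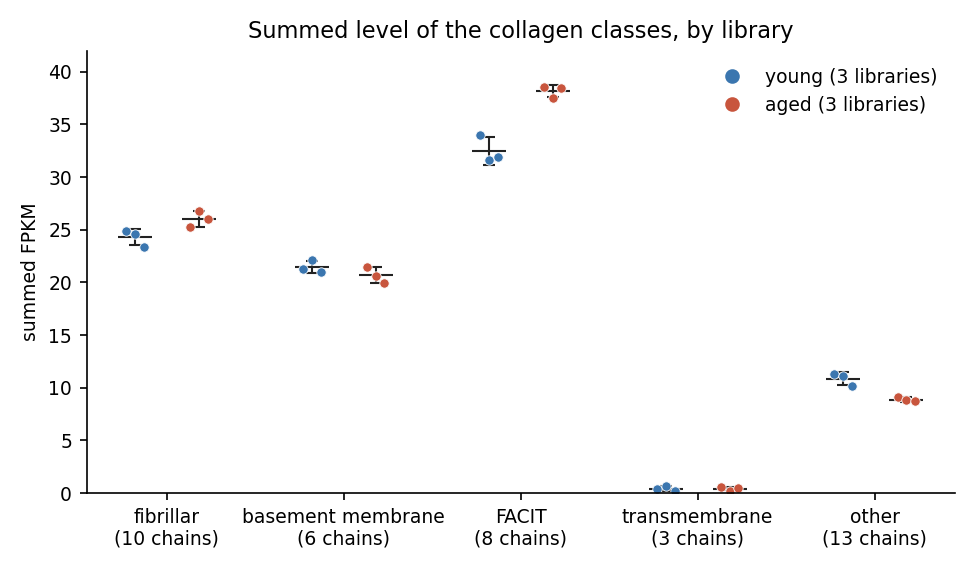
Summed FPKM of the chains of each class per library (points), with the group mean and SD (bars, n = 3). FACIT and fibrillar sums are higher in every aged library and the sum of the other chains, Col18a1 among them, is lower. The fibrillar sum rises by less than Col1a1 alone. Basement membrane (type IV) and transmembrane sums overlap.

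Chains outside these classes summed to 11.35, 11.1 and 10.1 FPKM in young and 9.1, 8.85 and 8.71 FPKM in aged libraries, without overlap, and the aged mean was 0.819 times the young one. Col18a1 (gene 12822, chromosome 10, 77052178 to 77166530) was at 7.53, 7.02 and 7.93 FPKM in young and at 6.38, 5.80 and 5.95 FPKM in aged libraries. All aged values lay below the young ones. Its log2 change, -0.27 ± 0.08 (SE), had a limma adjusted p of 0.223, which does not pass. A gene-level value cannot tell apart its transcripts from different start sites. Col26a1, a little-studied secreted chain, was at 3.02, 3.29 and 1.55 FPKM in young and 1.72, 2.07 and 1.77 FPKM in aged libraries. Young 3 lay below all aged libraries, so the groups overlapped (limma adjusted p = 0.617). Without young 3, the log2 change of Col26a1 went from -0.31 to -0.54 and the limma adjusted p was 0.209.

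The microfibril-forming type VI collagen, a typical product of fibroblasts and pericytes, was low or near 0 in every library. Col6a1 was at 0.23, 0.41 and 0.41 FPKM in young and 0.19, 0.19 and 0.18 FPKM in aged libraries, lower without overlap on about 7.79 and 4.01 estimated reads. Col6a2, Col6a3, Col6a4 and Col6a6 stayed at 0.1 FPKM or less. Col7a1, the anchoring fibril of skin, was at 0.2 to 0.34 FPKM over the 6 libraries. Col15a1, the closest relative of Col18a1, was above 0 only in aged 1, at 0.03 FPKM. All 3 transmembrane chains were under the filter: Col23a1 at 0.13 to 0.32 FPKM, Col13a1 at 0 to 0.31 FPKM and Col25a1, known from amyloid plaques, at 0.03 to 0.11 FPKM.

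**Figure D4:**
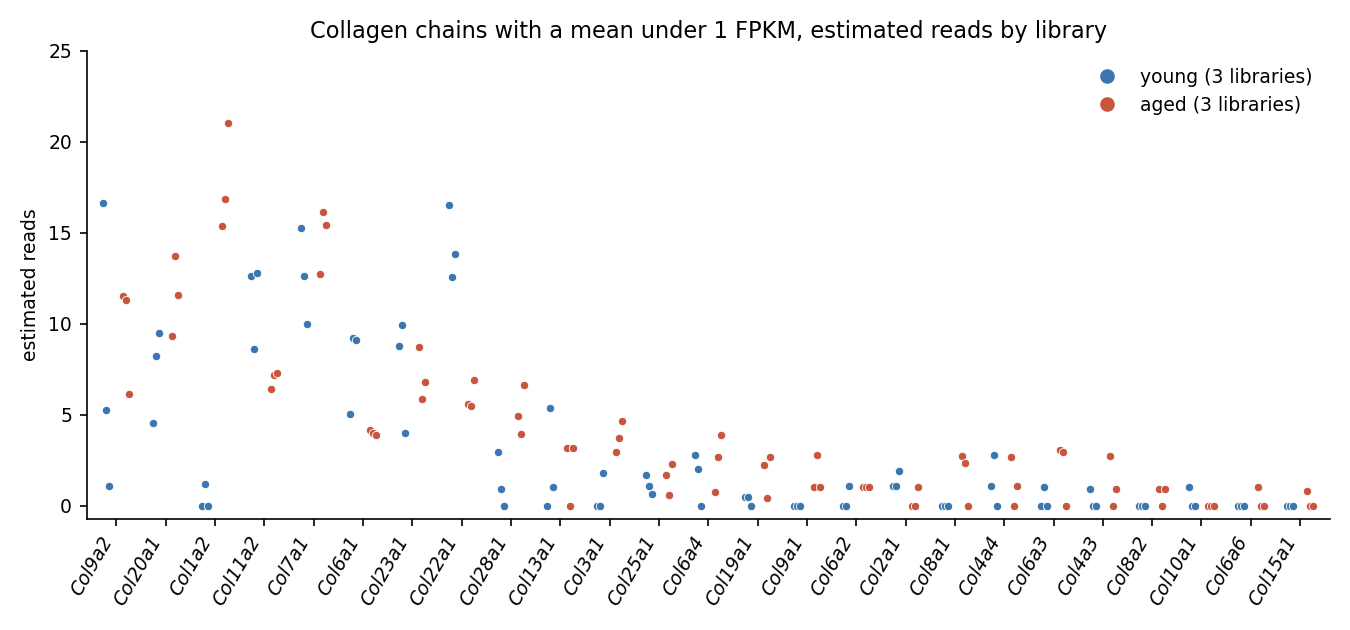
Estimated reads per library (young blue, aged red) of the 25 chains with a mean under 1 FPKM, ordered by mean FPKM. Col1a2 is at 15.3 to 21.02 reads in aged and at 1.17 or fewer in young libraries, and no chain exceeds that highest value of 21.02 reads.

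Of the 25 chains under the filter, 15 had a mean under 0.1 FPKM and none of these exceeded 0.16 FPKM, or about 4.66 estimated reads, in any library. In 5 of the 25 all young libraries were listed at 0, and in 1 (Col10a1) all aged ones. Groups did not overlap for 7 of the 25 chains, against 6.71% of the 5094 genes under the filter (3.87% higher, 2.85% lower). Higher in aged libraries were 4, Col1a2, Col3a1, Col9a1 and Col28a1, and lower were 3, Col11a2, Col22a1 and Col6a1. Col28a1, a chain of nerve and glial sheaths in the periphery, was at 0.13, 0.04 and 0 FPKM in young and 0.22, 0.18 and 0.30 FPKM in aged libraries, at most about 6.65 estimated reads. In the fit without a filter, Col1a2 was the only one of the 25 chains that passed.

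Genes that act on collagen were taken from 5 lists, with 63 genes in the tables and 46 tested. Of these, 1 fell and 0 rose by limma, against 0.722% of all tested genes called either way. Groups did not overlap for 13 of the 46, against 17.6%. The gene that fell was Sparc, which encodes a collagen-binding glycoprotein that also acts as a chaperone of collagen, at 96.9, 98.96 and 103.02 FPKM in young and 73.24, 70.19 and 75.48 FPKM in aged libraries. Every aged value lay below every young one. Its log2 change, -0.44 ± 0.04 (SE), had a limma adjusted p of 0.00397, which was 0.0630 without limma's trend.

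Among 22 genes of folding and modification, 21 were tested and 0 passed, with a median log2 change of 0.01. The collagen chaperone Serpinh1 (HSP47) was abundant at means of 163.2 ± 5.87 and 157.1 ± 6.30 FPKM (SD, n = 3 each), and the hydroxylase subunit P4hb was at means of 175.5 and 176.8 FPKM. The largest log2 changes of the list were those of P4ha2, Fkbp7 and P4ha1, of which P4ha1 and P4ha2 are prolyl hydroxylase subunits that stabilize the helix. P4ha1 was at 17.79, 19.59 and 17.81 FPKM in young and 22.36, 20.97 and 22.42 FPKM in aged libraries (limma adjusted p = 0.147). P4ha2 was at 1.28, 1.20 and 1.12 FPKM in young and 2.04, 2.47 and 1.78 FPKM in aged libraries (limma adjusted p = 0.196). Fkbp7, a prolyl isomerase of the endoplasmic reticulum, was at means of 4.23 and 5.81 FPKM (limma adjusted p = 0.1502). All 3 were higher in each aged library than in any young one. In the same list 2 genes were lower without overlap. These were P3h1 at means of 11.6 and 10.45 FPKM (limma adjusted p = 0.483) and Pdia3 at 177.5 and 171.6 FPKM (limma adjusted p = 0.607). The lysyl hydroxylases Plod1, Plod2 and Plod3 overlapped between the ages.

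Of 9 tested secretion genes 0 passed (median log2 change -0.02). Those with the smallest limma adjusted p were Trappc2 at means of 21.1 and 16.7 FPKM (0.392), the transcription factor Creb3l2 at 12.1 and 10.1 FPKM (0.502) and the coat GTPase Sar1b at 46.4 and 49.7 FPKM (0.571). All 3 overlapped between the ages. Mia3, the export receptor TANGO1, was at 19.95 and 19.9 FPKM.

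Of 8 tested genes of processing and crosslinking 0 passed, and the median log2 change was -0.11. Adamts14, a proteinase that removes the N-terminal propeptide of fibrillar procollagens, was at 26.02, 28.61 and 27.35 FPKM in young and 22.61, 22.40 and 21.76 FPKM in aged libraries. It did not overlap, and its limma adjusted p of 0.0587 missed the threshold but passed among genes of at least 5 FPKM (0.0440). That adjusted p was 0.142 without limma's trend and 0.0957 to 0.193 with 1 library left out. Bmp1, the proteinase for the C-terminal propeptide, was at 67.65, 63.43 and 63.94 FPKM in young and 55.17, 59.94 and 56.62 FPKM in aged libraries (limma adjusted p = 0.155). Adamts3 was at means of 1.72 and 1.17 FPKM (limma adjusted p = 0.436). These 3 were lower in every aged library. The crosslinking enzyme Lox reached 0.15 FPKM at most, while Loxl2 was at means of 3.26 and 3.12 FPKM.

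Collagen receptors were uneven in level. Of the 11 measured, 6 were tested and 0 passed (median log2 change -0.04). Groups did not overlap for 3 of the 6, Itgb1 and Ddr2 lower and Adgrg1 higher in aged libraries, against 17.6% of all tested genes. The integrin subunit Itgb1 was at means of 166.9 and 158.5 FPKM (limma adjusted p = 0.446), whereas its collagen-binding partners Itga1, Itga2, Itga10 and Itga11 all had means under 1 FPKM. The receptor kinase Ddr1 was at 154.1 and 153.6 FPKM. Ddr2, the related kinase that binds fibrillar collagens, was at 7.97 and 7.01 FPKM (limma adjusted p = 0.448) and Adgrg1, the receptor that binds type III collagen, at 194.7 and 201.4 FPKM (limma adjusted p = 0.577). Of fibril-binding genes other than Sparc, Fn1 was tested, at 4.79 and 5.31 FPKM (limma adjusted p = 0.718).

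**Figure D5:**
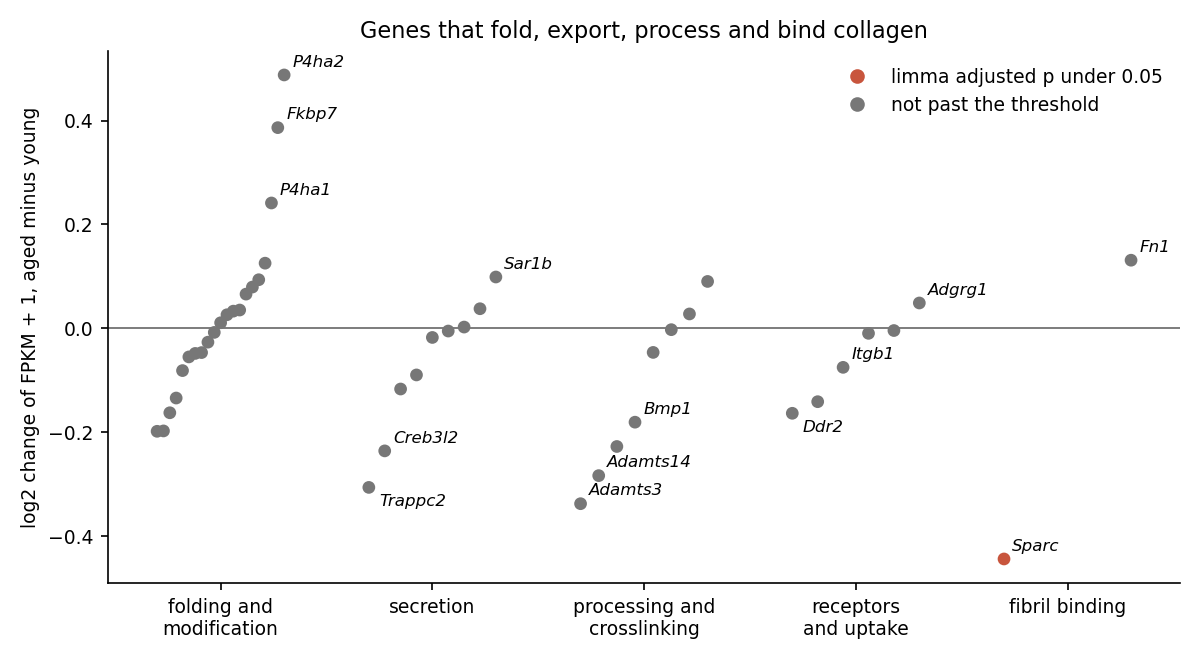
Log2 change of FPKM + 1, aged minus young, of the 46 tested genes in 5 lists of collagen folding, secretion, processing, reception and fibril binding, ordered within each list, with up to 3 genes of smallest adjusted p named. Only Sparc, at -0.44, passes the limma threshold.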

How the data were processed

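Ribosomal RNA was depleted from 1 ug of total RNA per library before library preparation (MGIEasy), per the labels' protocols. Each table gives FPKM, which the authors deposited rounded to 2 decimals, per the file headers. The submitters' processing notes name TopHat, Cuffdiff and the mm10 build. The annotation, strand setting and normalization between libraries are not given in the sources used here. FPKM are not counts, so no count test was used. Genes averaging 1 FPKM or more were tested two-sided on log2(FPKM + 1) by limma (version 3.58.1, R 4.3.3; eBayes with trend; 3 against 3 libraries without covariates). This scale understates changes of low genes. The test was tried on simulated data.

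Depth came from steps in low values: between 3.5 and 10.5 estimated reads, 41.2% to 59.97% of values were whole within 0.15, where chance gives 30.0%. Transcript lengths are from GENCODE, so estimated reads are approximate. Coordinates (from 1) are RefSeq's on GRCm38.p6. For each chain with a group mean of at least 1 FPKM and its partners, values in every library are given. Called pathway genes and up to 3 per list with the smallest adjusted p are named. Serpinh1, P4hb, P3h1, Pdia3, Plod1 to Plod3, Mia3, Lox, Loxl2, Ddr1 and the integrin partners were added after their values were seen. So were Col22a1, Col28a1, Col6a1 and other low chains. The members and lists were chosen with earlier results of these data known. Any 2 libraries had identical values in 0.403% to 1.16% of tested genes, so none is a copy. Figures were drawn with matplotlib 3.10.9 under Python 3.11.15, from tables made with numpy 2.4.6 and pandas 2.3.3.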

Additional observations from a re-analysis of the deposited data

How the results depend on the processing

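The number of collagen chains called lower was 0 in all alternatives run. That of chains called higher, 1, was 2 with no filter and 2 with no filter and a pseudocount of 0.1 (an alternative chosen after seeing the data), where Col1a2 joined Col1a1. It was 0 at a mean of at least 5 FPKM, which leaves Col1a1 out, 0 with the replicate block and 0 at an adjusted p under 0.01. In the block fit the limma adjusted p of Col1a1 was 0.0643. Deviations of same-numbered libraries correlated at -0.072 to 0.108, and 1 of 3 young libraries was closest to its own number, so the numbers were not taken as pairs. The number of pathway genes called lower, 1, was 2 at a mean of at least 5 FPKM, 2 at a mean of 20 estimated reads (chosen after seeing the data) and 0 without limma's trend. Of all genes 86 were called, against 11 without the trend, 22 with the replicate block, 19 at an adjusted p under 0.01 and 39 to 70 with 1 library left out. With 1 library left out, the log2 change of Col4a5 ran from -0.105 to 0.0019 (without young 2) and that of Col4a6 from -0.005 (without aged 2) to 0.0965, so both changed sign near 0. The log2 ratio of the basement membrane sum was -0.11 with Col15a1 and Col18a1 counted in, against -0.052. Of the alternative values of single chains, 272 kept their direction and side of the threshold, 2 (Col1a1) lost the call and 2 changed sign. Chains at a few reads limit any statement about low members.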

Other observations

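Several collagen genes are neighbours in the genome. Col3a1 and Col5a2 lie 24624 bases apart on chromosome 1, and their values went opposite ways: Col3a1 was higher and Col5a2 lower in every aged library. Col5a2 did not pass the limma test. Col3a1, at no more than about 4.66 estimated reads, was under the filter and did not pass in the fit without one (limma adjusted p = 0.454). Col4a6 and Col4a5 lie 1274 bases apart on the X chromosome, and both overlapped between the ages. Col4a4 and Col4a3, which overlap by 114 bases on chromosome 1, were both near 0 FPKM at this depth. Col6a2 and Col6a1 lie 85161 bases apart on chromosome 10 at means of 0.017 and 0.35 FPKM in young and 0.05 and 0.187 FPKM in aged libraries.

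Thbs2, a collagen-binding thrombospondin under the filter, was at 1.04, 1.03 and 0.98 FPKM in young and 0.62, 0.53 and 0.62 FPKM in aged libraries. Adamts2, also under the filter, was at 0.55, 0.55 and 0.56 FPKM in young and 0.68, 0.79 and 0.80 FPKM in aged libraries, against the direction of Adamts14 and Adamts3. Both genes were named after their values were seen.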
